A study of Mus musculus with 4 samples.

Results

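The 10 genes described here encode transcription factors of the gastric epithelium: Sox2, Gata4, Gata6, Foxa1, Foxa2, Foxq1, Klf4, Klf5, Spdef and Runx1. They were taken by exact gene symbol from the platform annotation, whatever their values, out of 18193 genes measured. They are read by 22 probe sets, and each gene is given by the brightest of its probe sets, judged by the mean of the 4 arrays. RNA came from the corpus epithelium, the acid-secreting part of the stomach, of wild-type mice 6 weeks old. Smooth muscle markers were also present, at mean log2 levels of 10.55 to 11.22, so the RNA was not of epithelium alone. Mice of C57BL/6, BALB/c and FVB/N background were used, and no array is labelled with its strain. Each of the 4 groups was 1 Affymetrix array on RNA pooled from 3 mice: vehicle (10% ethanol with 90% sunflower oil) at 2.5 days, and tamoxifen at 12 hours, 2.5 and 4.5 days. Tamoxifen, a selective estrogen receptor modulator, was given into the peritoneum at 5 mg per 20 g of body weight for 1 or 3 days. Which array had which is not stated, so injection length and collection time cannot be told apart. The study used it to bring on spasmolytic polypeptide-expressing metaplasia, in which acid-secreting parietal cells are lost and zymogen-secreting chief cells take on features of mucous neck cells.

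The stomach arises from the foregut endoderm. Forkhead box A proteins (Foxa1 and Foxa2) and GATA proteins (Gata4 and Gata6) open chromatin and set endoderm identity there, and Sox2 separates foregut from the intestine. In the adult glands, Foxq1 is known for the mucin gene Muc5ac of surface mucous cells, Spdef for maturation of mucus-secreting cells, Klf4 for differentiation and Klf5 for proliferation of epithelial cells, and Runx1 for blood formation and, through an enhancer, as a mark of dividing cells in the gland isthmus.

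None of the 10 factors was 2-fold higher or lower than vehicle at any of the 3 times after tamoxifen. The greatest distances from vehicle were those of Spdef, lower by 0.72 on the log2 scale at 12 hours only, and of Klf5, higher by 0.40 to 0.52 on all 3 tamoxifen arrays. Foxa2 lay lower on all 3 arrays and Klf4 hardly moved. The count of 0 of 10 stood beside 2.91% of expressed genes past 2-fold in either direction at 12 hours, 5.25% at 2.5 days and 6.53% at 4.5 days, and 0 of 10 is close to each of these shares. A gene counts as expressed here if the brighter of the arrays compared reached its own median, and all 10 factors met this in every comparison. At 1.5-fold, 1 of 10 factors (Spdef) was past the limit at 12 hours, where 9.03% of expressed genes were, and 0 of 10 at 2.5 and 4.5 days, where 15.7% and 19.0% were. The median size of the difference over the 10 was 0.18, 0.19 and 0.19 at the 3 times, against 0.18, 0.24 and 0.26 over all expressed genes. With 1 array per group no test across mice was possible, and vehicle, taken at 2.5 days only, is shared by these comparisons. As a gauge, the tamoxifen arrays at 2.5 and 4.5 days, the closest pair, had differences with a robust SD of 0.15 among expressed genes, so a difference under about that size is no larger than the usual one between these 2 pools.

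**Figure D1:**
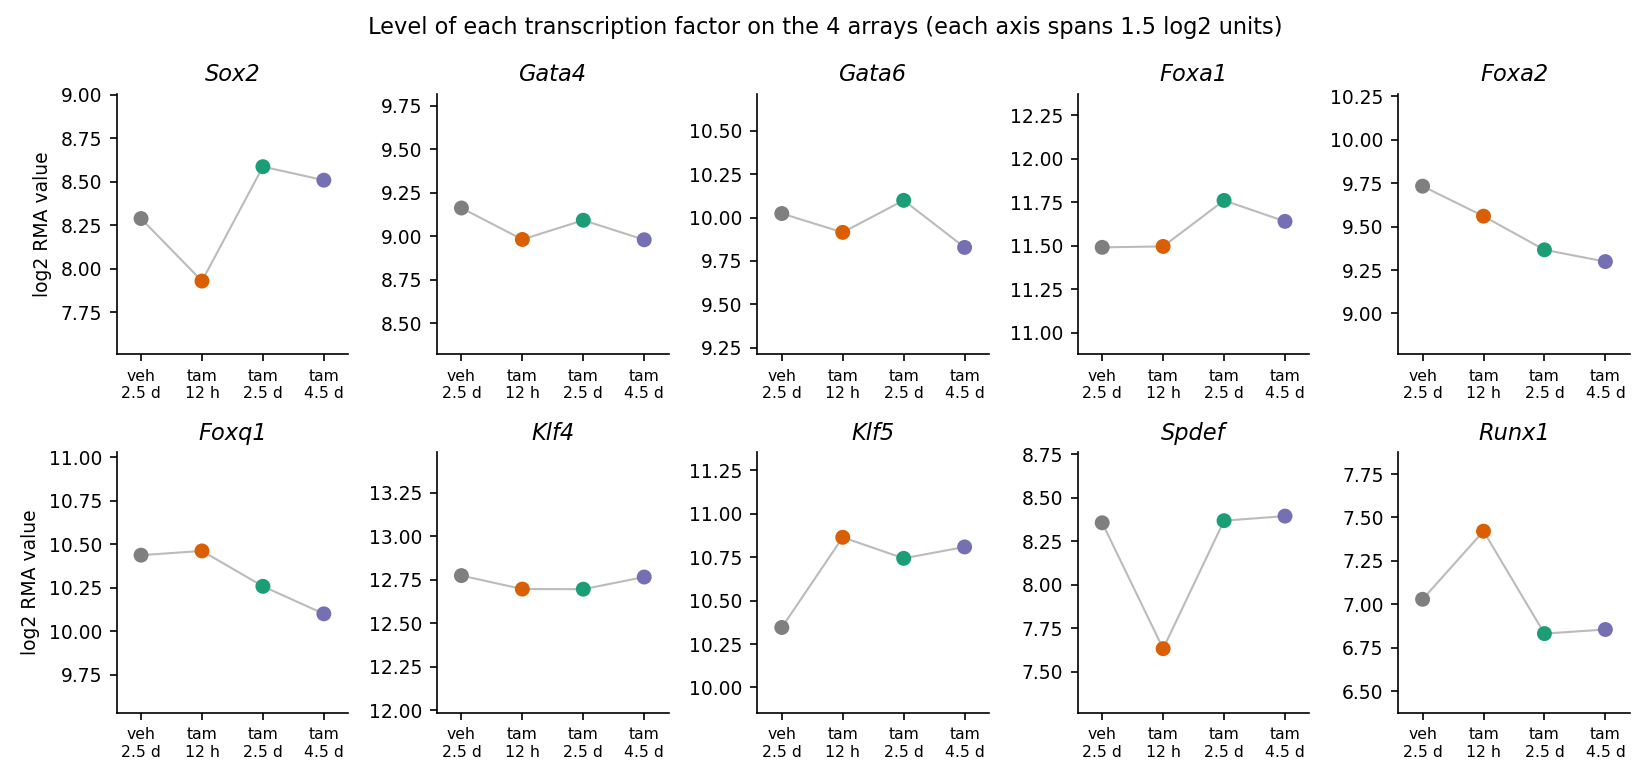
Level of each of the 10 transcription factors (log2 RMA value, vertical axis, 1.5 units in every panel) on the vehicle array and on the tamoxifen arrays at 12 hours, 2.5 and 4.5 days, 1 point per array; the lines only guide the eye. Spdef and Sox2 are lowest at 12 hours, Klf5 is lowest in vehicle, and Klf4 spans 0.08.

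The foregut pioneer factors differed little. Foxa1, which opens closed chromatin at endodermal genes, had log2 levels of 11.49 in vehicle, 11.50 at 12 hours, 11.76 at 2.5 days and 11.64 at 4.5 days after tamoxifen. It was thus level with vehicle at 12 hours and higher by 0.27 and 0.15 at the later times. Foxa2, its close paralog, had levels of 9.73, 9.56, 9.37 and 9.30 in the same order. Foxa2 was lower than vehicle by 0.17, 0.37 and 0.43 (-0.17, -0.37 and -0.43 on the log2 scale), and vehicle was its highest array. In each comparison over 30% of expressed genes lay at least as far from vehicle as either paralog did, the lowest share being 30.1% for Foxa2 at 4.5 days. Each of these genes has 1 probe set, so no other probe set could be set beside it. The third member of this subfamily, Foxa3, which was no member, differed by -0.03, -0.03 and 0.09.

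Gata4, a zinc finger factor of foregut and heart, had levels of 9.16 in vehicle and 8.98, 9.09 and 8.98 after tamoxifen. Its differences were -0.18, -0.07 and -0.18, the middle value turning to 0.06 when centred on the hybridisation controls, and its dimmer probe set gave -0.30, -0.39 and -0.23. Gata6, which shares much of its binding and its targets, had 10.02 in vehicle and 9.91, 10.10 and 9.83 after tamoxifen. Its differences were -0.11, 0.08 and -0.19, and its 3 probe sets ran from -0.11 to 0.08 at 2.5 days and from -0.36 to -0.12 at 4.5 days. Gata5, the remaining endodermal GATA gene, differed by -0.19, -0.19 and -0.04. GATA factors are known to bind the promoters of the proton pump genes Atp4a and Atp4b of parietal cells. Atp4a differed from vehicle by -0.66, -1.34 and -1.10 and Atp4b by -0.95, -1.74 and -1.31, on arrays where Gata4 and Gata6 differed by at most 0.19 by their brightest probe sets. On such pooled tissue, fewer cells of a type and less RNA per cell cannot be told apart.

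Sox2, the foregut determinant, had levels of 8.29 in vehicle, 7.93 at 12 hours, 8.59 at 2.5 days and 8.51 at 4.5 days. The 12-hour array was the lowest and the 2.5-day array the highest, with differences of -0.36, 0.30 and 0.22. At the 3 times 22.3%, 40.9% and 56.6% of expressed genes lay at least as far from vehicle as Sox2. Between the 12-hour and 2.5-day arrays, its lowest and highest, Sox2 differed by 0.66, a ratio of 1.58. There 7.41% of expressed genes differed at least as much. Sox2 and Spdef are the factors with the widest spans over the 4 arrays, 0.66 and 0.76, and both were lowest at 12 hours. Spdef, an ETS factor, had levels of 8.36 in vehicle, 7.63 at 12 hours, 8.37 at 2.5 days and 8.39 at 4.5 days. The vehicle and late tamoxifen arrays thus lay within 0.04 of each other and the 12-hour array stood apart, at 0.61 times the vehicle value. At 12 hours 5.73% of expressed genes lay as far from vehicle as Spdef or farther. Each of the 2 genes was read by 1 probe set.

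On the same 12-hour array markers of other tissues moved. Of 10 squamous markers, genes of the keratinized lining of the forestomach, 8 were at least 2-fold lower, and the mean log2 level of the list was 8.39 in vehicle, 4.86 at 12 hours, 8.27 at 2.5 days and 8.32 at 4.5 days. Of 9 markers of pancreatic acinar cells 8 were at least 2-fold higher at 12 hours, with list means of 5.79, 11.69, 5.65 and 5.55 in that order. Sox2, Klf4 and Klf5 are also factors of squamous epithelium, and Gata4 is also expressed in acinar pancreas. Trp63, the defining factor of squamous basal cells, lay at 5.22, 3.95, 5.19 and 5.57, below the array median on all arrays but that at 4.5 days. Among listed pancreatic factors, Ptf1a lay at 6.49, 6.89, 6.79 and 6.24 and Rbpjl below the array median on all 4. The rest of that list lay below vehicle at 12 hours: Bhlha15 at -1.95, Nr5a2 at -0.25, Gata4 at -0.18 and Pdx1 at -0.06. The part of these tissues in the 12-hour values of Sox2, Spdef and Klf5 was not tested. By brightest probe sets, 3 of 10 factors (Spdef, Sox2 and Runx1) spanned 1.5-fold or more over the 4 arrays, and 0 of 10 without the 12-hour array. A span can only stay or shrink when an array is left out. The share of all expressed genes with such a span was not computed, so these counts have no baseline.

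The start regions of Spdef and Sox2 are shown because these 2 factors were both lowest at 12 hours. RefSeq start regions, 250 bases before to 50 bases after the transcription start on build GRCm38.p6, were matched for 6 of the 10 factors, in 9 windows (Foxa1, Foxa2, Klf4, Runx1, Sox2 and Spdef). They were searched on both strands for 7 short motifs, which overlapped each other nowhere in these windows: the GATA family motif AGATAA, the forkhead motif TGTTTAC, the SOX motif ACAATG, the RUNX motif TGTGGT, the KLF motif CCACCC, the ETS core GGAAG and the promoter box TATAAA. Of all 32851 RefSeq windows of this length 11.2%, 3.65%, 12.6%, 16.8%, 31.5%, 71.4% and 13.6% hold them, in the same order. Capitals mark matches, the sequences run 5′ to 3′ along the gene, Spdef lies on the minus strand at chr17:27728902-27729201 and Sox2 on the plus strand at chr3:34649745-34650044.

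Spdef: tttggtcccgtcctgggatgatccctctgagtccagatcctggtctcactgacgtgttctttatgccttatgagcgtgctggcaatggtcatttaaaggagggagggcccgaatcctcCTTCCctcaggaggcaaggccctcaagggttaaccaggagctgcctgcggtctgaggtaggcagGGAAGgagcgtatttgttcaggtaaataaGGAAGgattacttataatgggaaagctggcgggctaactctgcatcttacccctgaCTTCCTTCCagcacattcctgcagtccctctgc

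Sox2: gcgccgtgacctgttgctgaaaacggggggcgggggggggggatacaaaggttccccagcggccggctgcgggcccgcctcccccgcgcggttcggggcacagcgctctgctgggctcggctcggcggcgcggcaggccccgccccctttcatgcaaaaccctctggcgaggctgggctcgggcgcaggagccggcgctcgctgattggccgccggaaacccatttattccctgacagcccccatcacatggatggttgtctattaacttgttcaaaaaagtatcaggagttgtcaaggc

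The Spdef window holds 5 matches to the ETS core, at -132, -68, -39, 18 and 22 from the start site, the last 2 sharing a base, and no other of the 7 motifs. The Sox2 window holds none of the 7. Its GC content was 66.3% and that of the Spdef window 53.3%, against a median of 52.7% over all windows. The windows of these 2 factors thus shared none of these motifs. In the Foxa1 window a forkhead match stood at -141, and in the Klf4 window an ETS core at -126. For Foxa2, the window at chr2:148045899-148046198 held 2 KLF matches and 4 ETS cores. That at chr2:148045415-148045714 held a GATA match at -183, 2 KLF matches, an ETS core at -32 and a TATAAA match at -208. The Foxa2 window at chr2:148046920-148047219 held none of the 7. A match describes letters only and shows no binding.

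Agr2, Creb3l1, Creb3l4, Foxa3, Foxa1 and Foxa2 were listed as known targets of Spdef in mucus-secreting cells, Agr2 encoding a protein disulfide isomerase needed for mucin folding. Agr2 differed from vehicle by -0.69, -0.40 and -0.12 at the 3 times and Creb3l4 by -0.74, 0.17 and -0.01. Both were lowest at 12 hours, the array on which Spdef was lowest. The 3 Foxa genes showed no such dip: at 12 hours Foxa3 was at -0.03 and Foxa1 at 0.01, and Foxa2, at -0.17 there, was lowest at 4.5 days. Creb3l1 differed by -0.64, -0.64 and -0.56 and so was also lower on the late arrays, where Spdef was level with vehicle. None of these genes was 2-fold apart from vehicle. Of 12444 genes expressed in any comparison with vehicle, 5 had all 3 differences within 0.10 of those of Spdef: Cdsn, Creld2, Coq7, Tasp1 and Dlat. Cdsn, a gene of cornified squamous cells, differed by -0.77, -0.08 and 0.05, and Creld2, an endoplasmic reticulum gene, by -0.63, 0.03 and -0.04. At 12 hours Cdsn lay at 5.32, near the array medians of 5.30 to 5.34. Coq7 differed by -0.63, 0.10 and -0.06, Tasp1 by -0.66, -0.06 and -0.06, and Dlat by -0.62, -0.04 and -0.05.

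**Figure D2:**
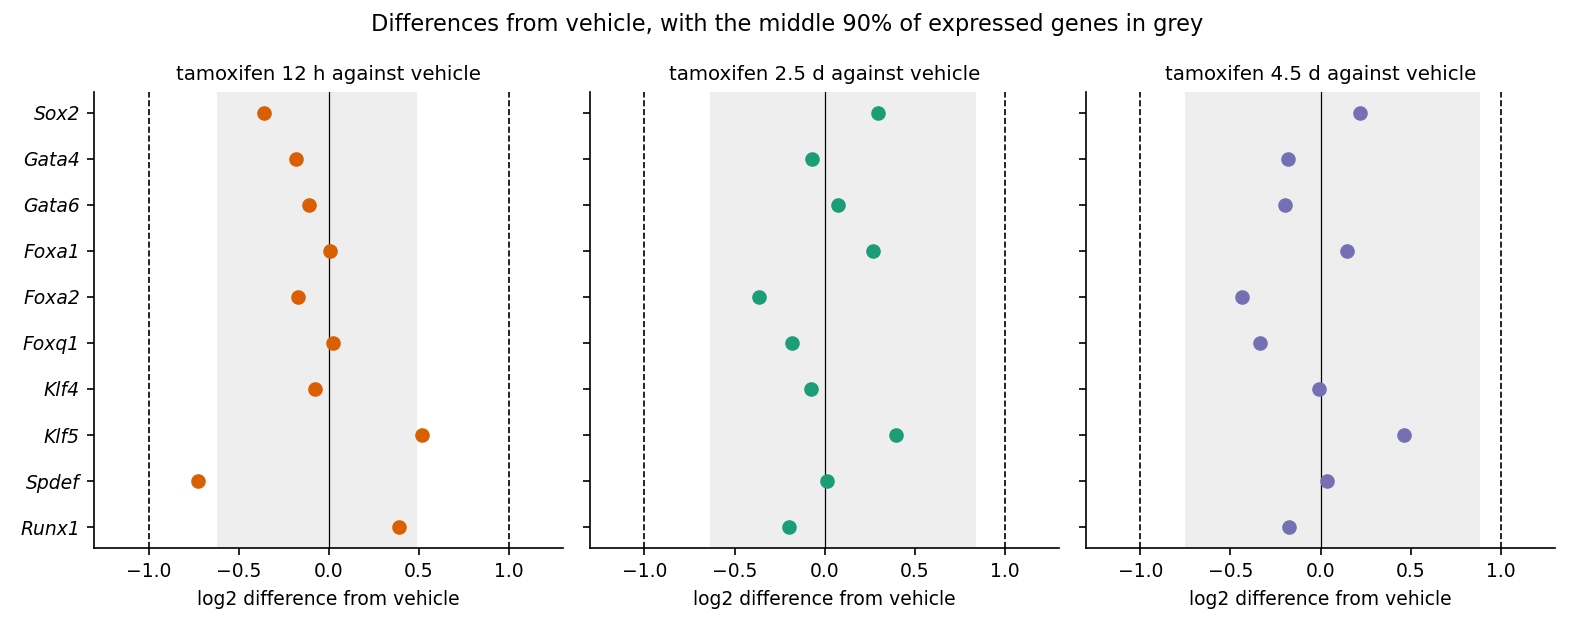
Difference of each factor from the vehicle array (log2, horizontal axis) at 12 hours, 2.5 and 4.5 days after tamoxifen; the grey band holds the middle 90% of all expressed genes and the dashed lines stand at 2-fold. At 12 hours Spdef (-0.72) and Klf5 (0.52) lie outside the grey band, and at the later times all 10 factors lie inside it.

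Among the Krüppel-like factors, Klf5 and Klf4 differed in pattern. Klf5, a factor of dividing epithelial progenitors, had levels of 10.35 in vehicle and 10.86, 10.74 and 10.81 after tamoxifen. Vehicle was its lowest array, and the 3 tamoxifen arrays lay within 0.12 of each other, at 1.43, 1.32 and 1.38 times the vehicle value. A second probe set above the array median gave differences of 0.58, 0.51 and 0.44, close to the 0.52, 0.40 and 0.46 of the brightest. The third was dim on all arrays, with differences of -0.06, -0.22 and 0.12. At 12 hours 11.3% of expressed genes lay at least as far from vehicle as Klf5, and 29.6% and 27.6% at the later times. The 7 proliferation markers measured, such as Mki67 and Top2a, had a median difference of -0.31 at 12 hours, with 0 of 7 past 2-fold, and of 1.73 and 1.77 at 2.5 and 4.5 days, with 7 of 7 at least 2-fold higher. The 7 did not move alike at 12 hours, where Mki67 was at -0.70 and Bub1, a mitotic checkpoint kinase gene, at -0.98, while the replication genes Mcm5 and Rrm2 were at 0.68 and 0.33.

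Klf4, a factor of differentiated, non-dividing epithelium, had levels of 12.77, 12.70, 12.70 and 12.77 on the vehicle, 12-hour, 2.5-day and 4.5-day arrays. Its span of 0.08 was the smallest of the 10 factors. Its other probe set differed from vehicle by 0.01, -0.19 and -0.09.

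Foxq1, a forkhead factor of surface mucous cells, had levels of 10.44 in vehicle, 10.46 at 12 hours, 10.26 at 2.5 days and 10.10 at 4.5 days. Its differences were 0.02, -0.18 and -0.34, and its other probe set gave 0.22, -0.14 and -0.29. The brightest probe set is of the type whose probes can also bind other transcripts, and both placed the 4.5-day array lowest. Muc5ac, the surface mucin gene for which Foxq1 is needed, differed by -0.01, -0.47 and -0.37. By the brightest probe set of Foxq1 both genes were level with vehicle at 12 hours and below it later, neither by 2-fold. Over the 6 surface mucous markers the median differences were 0.02, 0.02 and -0.02, with 0 of 6 past 2-fold at each time. Among them Tff1, Gkn1 and Gkn2 lay between 14.57 and 14.85. That is at the top of the measured range, whose highest value was 14.85, so little room was left for a rise. Psca differed by -0.05, -0.41 and -0.47 and Muc1 by 0.21, 0.03 and -0.08.

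Of the 6 factors with several probe sets, Runx1 is the one whose readout depended most on the probe set. It also has the most, 6, and the 4 factors with 1 probe set could show no such dependence. Its brightest probe set had levels of 7.03 in vehicle, 7.42 at 12 hours, 6.83 at 2.5 days and 6.86 at 4.5 days. By it Runx1 was highest at 12 hours, with differences of 0.39, -0.20 and -0.17. All 6 probe sets reached the array median on at least 1 array. They ran from -0.02 to 0.45 at 12 hours, with 4 of 6 above vehicle, from -0.53 to 0.43 at 2.5 days, with 2 above, and from -0.58 to 0.60 at 4.5 days, with 3 above. The probe set highest at 4.5 days was above vehicle by 0.45, 0.43 and 0.60, whereas the lowest there differed by -0.01, -0.53 and -0.58. Their levels were 5.55 to 6.15 and 5.60 to 6.18, not far above the array medians of 5.30 to 5.34. No direction can be given for Runx1 at the later times from these values.

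**Figure D3:**
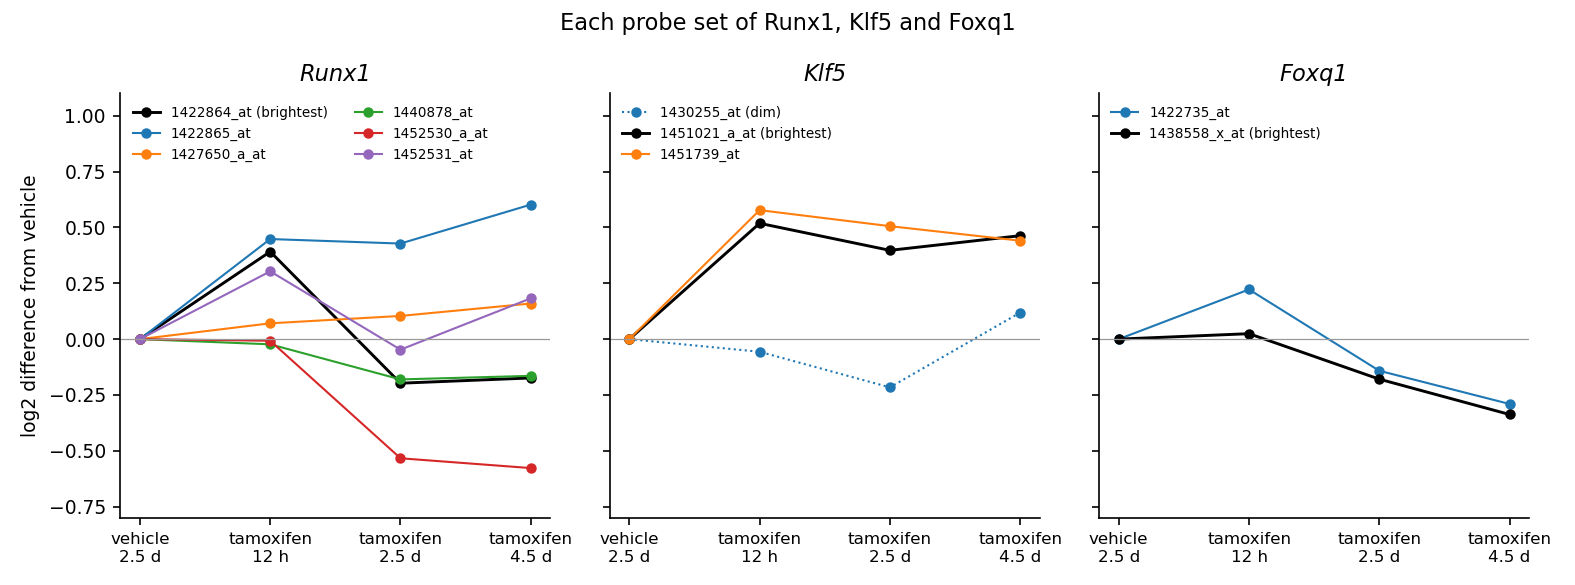
Difference from vehicle (log2, vertical axis) of each probe set of Runx1, Klf5 and Foxq1 on the 4 arrays; the black line is the brightest probe set and the dotted line a probe set below the array median on all arrays. The 6 probe sets of Runx1 spread to both sides of vehicle at 2.5 and 4.5 days, from -0.58 to 0.60 at 4.5 days, while the 2 bright ones of Klf5 differ by less than 0.15 at each time and the 2 of Foxq1 do so at the later times but stand at 0.02 and 0.22 at 12 hours.

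Runx1 is transcribed from a distal and a proximal start, both in the RefSeq table, and they are shown because transcripts of a gene with several starts and ends can be read differently by different probe sets. The positions of the probes in the transcripts were not used here. Both windows lie on the minus strand of GRCm38.p6, the distal at chr16:92826025-92826324 and the proximal at chr16:92697280-92697579, with capitals as above.

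Runx1 distal: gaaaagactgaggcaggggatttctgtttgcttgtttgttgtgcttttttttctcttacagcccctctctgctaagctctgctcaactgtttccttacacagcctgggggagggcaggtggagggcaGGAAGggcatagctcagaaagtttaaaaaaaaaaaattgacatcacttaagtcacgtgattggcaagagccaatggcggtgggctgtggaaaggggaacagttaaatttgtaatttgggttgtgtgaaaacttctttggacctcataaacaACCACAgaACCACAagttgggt

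Runx1 proximal: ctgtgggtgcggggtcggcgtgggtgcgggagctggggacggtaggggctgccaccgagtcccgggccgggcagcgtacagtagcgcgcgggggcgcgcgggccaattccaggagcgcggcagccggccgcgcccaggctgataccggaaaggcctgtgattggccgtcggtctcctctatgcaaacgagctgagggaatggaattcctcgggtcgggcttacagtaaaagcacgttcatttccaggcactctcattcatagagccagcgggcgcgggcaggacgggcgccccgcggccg

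The distal window holds 2 RUNX matches, at 29 and 37 after the start, and an ETS core at -123, and the proximal window holds none of the 7 motifs. The GC content was 45.0% for the distal and 69.0% for the proximal window.

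Runx1 is also expressed in leukocytes, and leukocyte markers moved on these arrays. Of 6 general leukocyte markers 1 was at least 2-fold higher at 12 hours, 1 at 2.5 days and 2 at 4.5 days, and none was 2-fold lower. Their mean level was 7.54 in vehicle and 7.98, 8.31 and 8.29 after tamoxifen. Of 7 macrophage markers 1, 4 and 1 were at least 2-fold higher at the 3 times, with list means of 7.92, 8.29, 8.77 and 8.69 from vehicle on. The part of leukocytes in the Runx1 values was not tested. Cbfb, the shared partner of RUNX proteins, differed by 0.17, 0.49 and 0.47, and Runx3 by -0.06, -0.02 and -0.09. Runx2 was not analysed here.

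The close relatives of the 10 factors were mostly as near to vehicle as the factors themselves. Of 58 measured genes of the SOX, GATA, FOX, KLF, RUNX and ETS groups with their partners, 46 were expressed at each time. By brightest probe sets, 3 of these were past 2-fold at 12 hours, 1 at 2.5 days and 1 at 4.5 days. Over all expressed genes the shares were 2.91%, 5.25% and 6.53%. Some other probe sets above the array median on at least 1 array also passed 2-fold. They reached 1.73 at 12 hours for Klf6 and 1.05 at 2.5 days for Ehf, whose brightest were at 0.69 and 0.61. For Runx1t1 they reached -1.26 at 12 hours and -1.27 at 4.5 days, against -0.91 and -0.97 by the brightest. By brightest probe sets the median sizes of difference of the 46 relatives were 0.18, 0.22 and 0.24, beside 0.18, 0.24 and 0.26 over all expressed genes. Sox4, a factor of progenitor cells, had levels of 9.78 in vehicle, 11.50 at 12 hours, 10.21 at 2.5 days and 10.28 at 4.5 days. It stood out on the 12-hour array, at 1.72 above vehicle, with its probe sets above the array median between 1.0 and 1.72. Sox9 differed by -0.29, 0.13 and 0.31 and Sox21 by 0.21, 0.17 and -0.01.

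Within the KLF family some of the 12 expressed relatives lay farther from vehicle than Klf4 and Klf5, though so many genes can reach farther by number alone. Klf15, a metabolic regulator induced by glucocorticoids, had levels of 8.03 in vehicle and 6.84, 6.98 and 6.22 after tamoxifen. It was more than 2-fold lower on all 3 arrays, at -1.19, -1.06 and -1.82, and vehicle was its highest array. Klf11 was 1.02 above vehicle at 12 hours, 0.42 at 2.5 days and -0.12 from it at 4.5 days. Klf10, a gene induced by TGF-beta and named after its values were seen, stayed just under 2-fold at 0.95, 0.92 and 0.89. Each of these genes was read by 1 probe set.

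**Figure D4:**
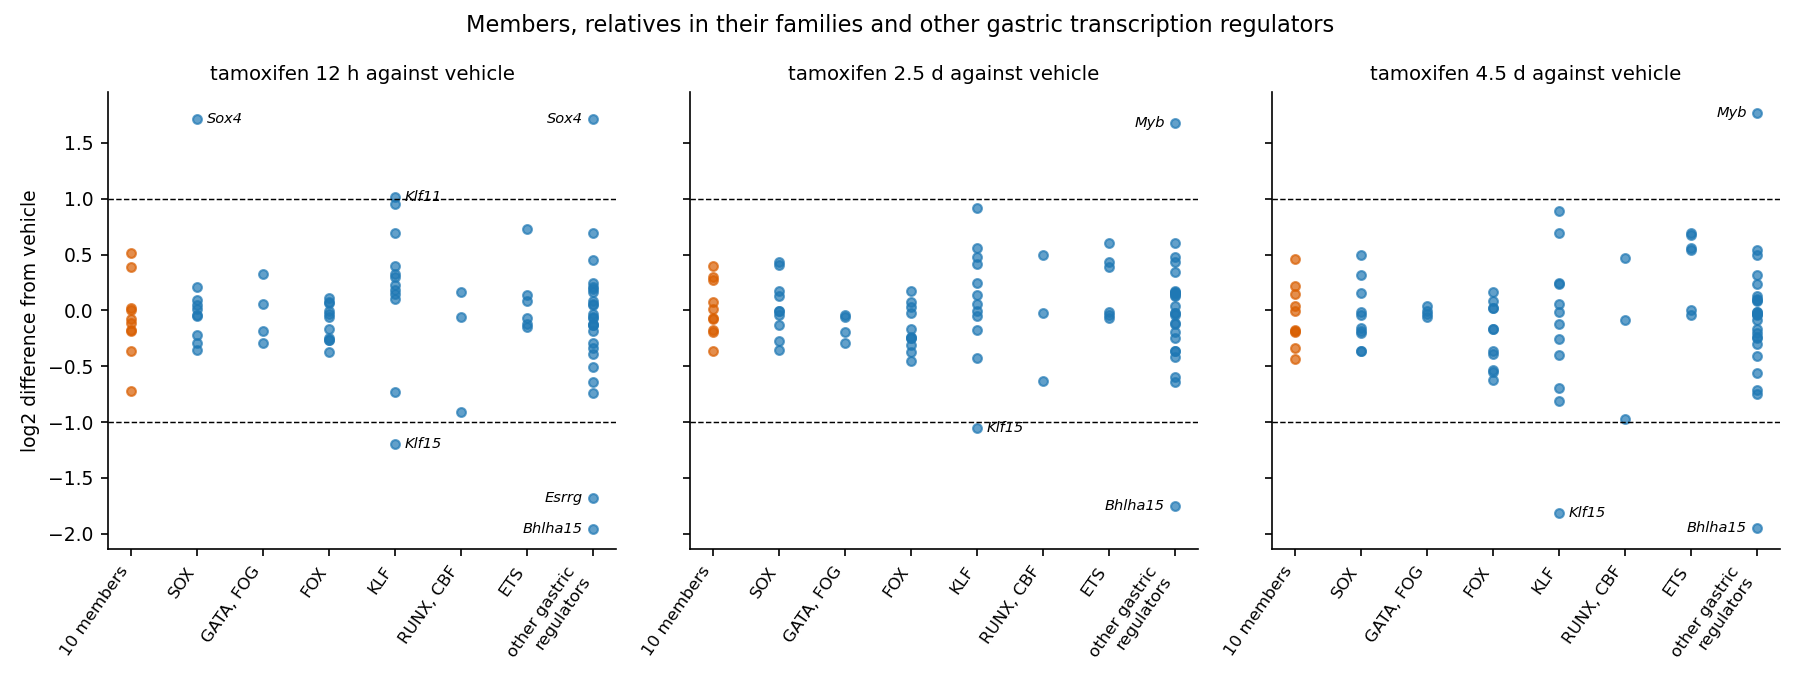
Difference from vehicle (log2, vertical axis) of the 10 factors (orange), of relatives grouped by family and of other gastric transcription regulators (blue) at the 3 times, 1 point per gene with a probe set at or above the array median on any array; dashed lines stand at 2-fold and genes past it are named. The orange points lie between -0.72 and 0.52, and Bhlha15, Klf15, Esrrg, Klf11, Sox4 and Myb lie past 2-fold in at least 1 panel.

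Other regulators of gastric cells included larger differences. Of 26 measured genes in that list, 25 were expressed at each time. By brightest probe sets 3 of these were past 2-fold at 12 hours (Sox4 again, Bhlha15 and Esrrg), 2 at 2.5 days and 2 at 4.5 days (Bhlha15 and Myb at both). These counts stood beside 2.91%, 5.25% and 6.53% of all expressed genes. Esrrb was at 0.19, -0.25 and -0.25 by its brightest probe set. Its probe sets above the array median on at least 1 array reached -1.55, -2.09 and -1.82. Those of Ppargc1a reached -1.03, -0.97 and -1.03, and Klf6 and Ehf also depended on the probe set, as given above. Bhlha15, the chief cell factor of zymogen granule maturation, was lower on all 3 tamoxifen arrays, by -1.95, -1.76 and -1.95, read by its 1 probe set above the array median. Esrrg, a nuclear receptor of parietal cells, was at -1.68 at 12 hours and at -0.37 and -0.75 later. Myb, a factor of dividing progenitors, went the other way with levels of 5.79 in vehicle and 6.25, 7.48 and 7.57 after tamoxifen. At 2.5 and 4.5 days it was 1.68 and 1.77 above vehicle, and its 3 probe sets ran from 1.68 to 1.76 and from 1.77 to 1.89. Hnf4a, a further endodermal factor, was at 0.05, 0.14 and 0.13 by its brightest probe set. Its probe sets above the array median ran from 0.03 to 0.58 at 12 hours, from -0.28 to 0.78 at 2.5 days and from -0.18 to 0.81 at 4.5 days, so no direction can be given for it at the later times. Cdx1, Isx, Atoh1 and Gfi1, factors of intestinal epithelium, lay below the array median on all 4 arrays, and the intestinal factor Cdx2 lay at 5.33 in vehicle and 5.11, 4.95 and 4.91 after tamoxifen.

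Markers of chief and parietal cells on the same arrays moved further than the 10 factors. Of 8 chief cell markers 2, 4 and 5 were at least 2-fold lower at 12 hours, 2.5 and 4.5 days, and of 10 parietal markers 6, 6 and 7. The chief list's Tnfrsf19, which encodes a receptor of the TNF family, was among those lower at 12 hours, at -1.11, but was more than 2-fold higher at 2.5 and 4.5 days, at 1.04 and 1.41. No parietal marker was 2-fold higher at any of the 3 times. The median differences of the chief list were -0.19, -0.95 and -2.17 and those of the parietal list -1.44, -1.16 and -1.12. Over the 10 factors the medians were -0.09, -0.03 and -0.09, with 4, 5 and 4 genes above vehicle. Other lists lay nearer to vehicle: the 6 surface mucous markers as given above, the 6 general epithelial markers with 0 past 2-fold at each time and medians of 0.35, 0.23 and 0.29, and the 8 endocrine markers with medians of -0.10, -0.14 and -0.49 and 2 lower at 4.5 days. Of 5 mucous neck markers measured 1 was past 2-fold at each of the first times, lower at 12 hours and higher at 2.5 days, and 2 were higher at 4.5 days. These were the chloride channel gene Cftr, at -1.14, 1.15 and 2.38, and at 4.5 days also the water channel gene Aqp5, at 1.61. Epithelial markers such as Epcam and Krt8 were present at list means between 12.65 and 13.02, and smooth muscle markers at 10.55 to 11.22, so the RNA was not of epithelium alone.

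**Figure D5:**
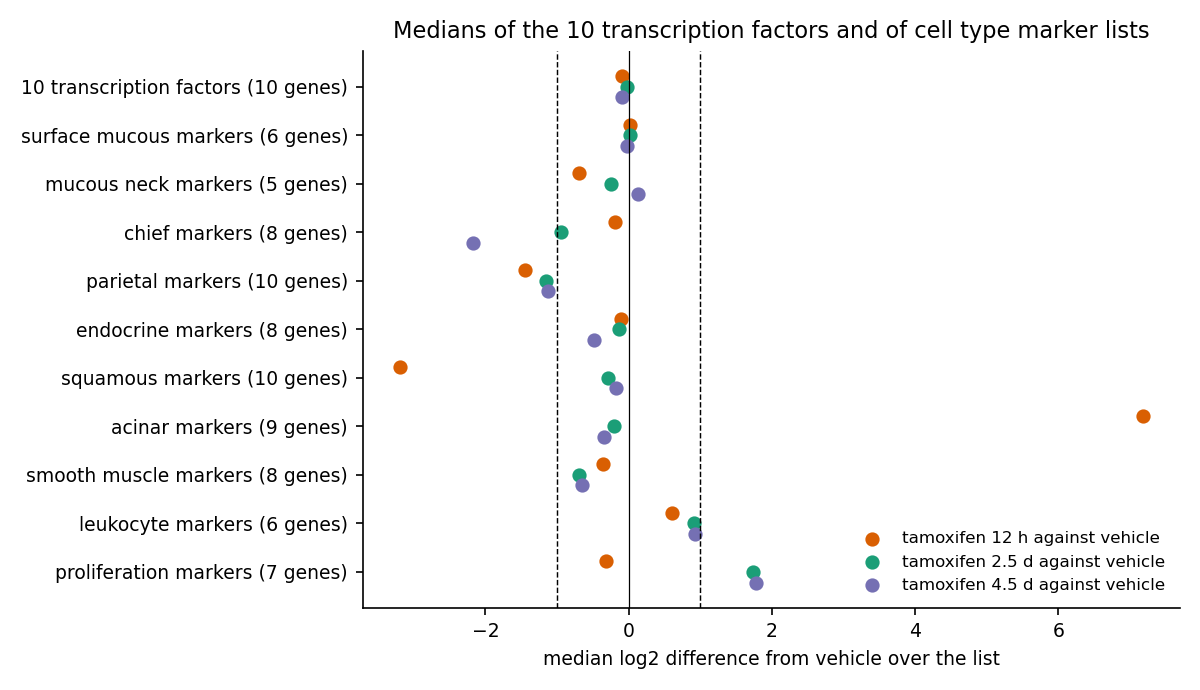
Median difference from vehicle (log2, horizontal axis) over the 10 transcription factors and over lists of cell type markers, at 12 hours (orange), 2.5 days (green) and 4.5 days (violet) after tamoxifen; dashed lines stand at 2-fold. The 10 factors lie at -0.09, -0.03 and -0.09, the chief list reaches -2.17, and the squamous and acinar lists stand at -3.19 and 7.17 at 12 hours only.

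Between tamoxifen arrays, no factor was 2-fold apart either. From 12 hours to 2.5 days, where 3.24% of expressed genes passed 2-fold and 9.80% passed 1.5-fold, 3 of the 10 factors passed 1.5-fold. Spdef was higher at 2.5 days by 0.74 and Sox2 by 0.66, and Runx1 differed by -0.59. For Runx1 1 of the 6 probe sets went the other way, and they ran from -0.59 to 0.03. From 2.5 to 4.5 days 0.429% of expressed genes passed 2-fold and 2.10% passed 1.5-fold, with 0 of 10 factors past either. The greatest step there was that of Gata6, -0.27, and 13.2% of expressed genes differed at least as much.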

How the data were processed

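Per the labels' protocols, RNA was pooled from 3 mice per condition, amplified and labelled with biotin. The deposited values are log2 expression per probe set, made by the authors with Partek's RMA, as the submitters' processing notes have it, with no version given. The log base was inferred from the values, 2.06 to 14.85. RMA equalizes the arrays' distributions, so a shift common to most genes would not be seen. Of 45101 probe sets, 34945 had exactly 1 gene symbol and were no control, giving 18193 genes. Each gene was given by its probe set of highest mean, and a probe set was called dim if below the array median on every array. Differences of log2 values were taken for 5 pairs of arrays and counted at 2-fold and 1.5-fold over genes whose brighter array reached its median. With 1 array per group there is no test, and the number of arrays limits the precision. The script was tested on simulated data. Every member was named. Of the lists, genes past 2-fold in a comparison with vehicle, close paralogs and known targets were named, beside a few genes named for context after their values were seen. The members and lists were chosen with earlier results of these data known. Python 3.11.15, pandas 2.3.3 and numpy 2.4.6 were used. Alternatives concerned probe set, centring, threshold and filter.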

Additional observations from a re-analysis of the deposited data

Results flagged for a closer look

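Sox2, and Runx1 by its brightest probe set, lay on opposite sides of vehicle at 12 hours and at the later times, each by more than the robust SD of 0.15 of the closest pair of arrays. That limit is low, since the robust SD among expressed genes was 0.27, 0.35 and 0.39 in the 3 comparisons with vehicle. In these, 22.3%, 40.9% and 56.6% of expressed genes lay at least as far from vehicle as Sox2. For Runx1 the shares were 19.3%, 57.1% and 64.5%. Sox2 differed from vehicle by -0.36 at 12 hours, 0.30 at 2.5 days and 0.22 at 4.5 days, which are steps of 0.66 and 0.58 from the 12-hour value. Runx1 differed by 0.39, -0.20 and -0.17, steps of -0.59 and -0.57, by its brightest probe set. For Runx1 this depends on the probe set and the centring: centred on the hybridisation controls it was at -0.07 and -0.01 at the later times, and over its 6 probe sets the values ran from -0.53 to 0.43 at 2.5 days and from -0.58 to 0.60 at 4.5 days. These contrasts rest on 1 array per time and share the vehicle array, and the difference between times was not tested.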

How the results depend on the processing

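The count of factors past 2-fold was 0 of 10 in all 5 comparisons under each choice of probe set and under both centrings tried. At 1.5-fold it was 1 at 12 hours against vehicle and 3 between 12 hours and 2.5 days, where 9.03% and 9.80% of expressed genes passed. In the other comparisons it stayed at 0. A lower limit can only keep or raise such a count. With the 12-hour array left out, an alternative chosen after seeing the data, 0 factors spanned 1.5-fold in place of 3. A span can only stay or shrink in this way, and the share over all expressed genes was not computed. The share of expressed genes past 2-fold stayed within 1.5 times of its value with the filter at the 75th percentile and with no filter. Of 30 differences of single factors from vehicle, centring on expressed genes moved 0 by more than 0.15, the mean over probe sets moved 3, the probe set with the largest range 5 and centring on hybridisation controls 10, with a change of sign in 1, 2, 4 and 5. The hybridisation controls, 18 in number, differed from vehicle by 0.04, -0.13 and -0.16 on average at the 3 times, so that centring would add 0.13 and 0.16 at the later times. The sign changes from either centring were of Foxa1, Foxq1, Gata4, Klf4 and Spdef, where the difference was under 0.10. Of 36 values from probe sets other than the brightest 18 moved by more than 0.15 and 12 changed sign, among them those of Runx1 at each time. No paired analysis was possible because each group has 1 array. Differences within about 0.15 are not resolved on these arrays, and larger ones are not resolved by that alone. The 19 poly-A control probe sets that reached the array median on at least 1 array also differed from vehicle. Their SD was 0.19, 0.11 and 0.21 at the 3 times, and their largest differences in size were 0.64, 0.28 and 0.72.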
